A study of Homo sapiens with 12 samples.

Results

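The replication-dependent histone genes were taken as every row of the count table whose symbol names a linker histone of the series H1-1 to H1-6 or a numbered member of the H2AC, H2BC, H3C or H4C families. The rule matched 69 of 61255 rows. They were 6 H1 rows, 17 H2A rows, 18 H2B rows, 13 H3 rows and 15 H4 rows. The rows held 5151 counts over 12 libraries, between 0.0213% and 0.044% of a library. Of the 69 rows, 43 had 24 or more counts over the 12 libraries and were tested one by one, 26 had fewer, and H4C6 and H4C7 were listed at 0 in every library. The row with the fewest counts that was tested was H2AC14 with 28 counts, and the rows nearest below the limit were H2AC13, H2BC9 and H2BC26 with 22 counts each.

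The libraries came from Huh-7.5 cells, a human hepatocellular carcinoma line, engineered to express the proximity-labelling peroxidase APEX2. The lines were labelled APEX-NES, APEX-NLS and APEX-G3BP1, here called NES, NLS and G3BP1, so that every library, mock ones included, carried an APEX2 construct. Each line was sampled as mock and after 45 minutes of sodium arsenite at 0.5 mM, an oxidative stress that halts translation and induces stress granules, with 2 replicates in each of the 6 groups. Total RNA was depleted of ribosomal RNA and made into libraries with a directional kit. The question put to these libraries was what stress does to the transcriptome of the engineered cells. The labels do not say whether a line is 1 clone, which promoter drives the construct or whether replicates came from separate cultures, so p-values measure only the spread between these samples, which may be technical.

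Replication-dependent histone genes supply the core histones H2A, H2B, H3 and H4 and the linker histone H1 that package newly copied DNA. They lie in clusters on both strands, most have no introns, and they are transcribed mainly in S phase under the coactivator NPAT. Their mRNAs end in a conserved stem-loop instead of a poly(A) tail. The stem-loop is bound by SLBP, and the pre-mRNA is cut just past it by a complex that contains U7 snRNA, which pairs with a purine-rich element downstream. When DNA synthesis stops, the mRNAs are tailed with uridines and degraded quickly.

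The stem-loop shows what separates these transcripts from other mRNAs and where the processed mRNA ends. It was searched on the sense strand of the GENCODE 29 transcripts by its fixed letters. The bases of the stem that vary between families and the last base of the loop were left free. Counted by gene, it was present in the annotated exons of 30 of the 69 members. Counted by transcript, with the members' own transcripts included, it was in 128 of all 206694 annotated transcripts (0.0619%). The other members' exons, including those of H1-4 and H2BC12, held no match to these letters, which says nothing about sequence outside the annotation. The elements of 5 members described here are given 5′ to 3′ as they lie in the transcript, with the stem and loop in capitals and the flanks in lower case. They lie on GRCh38 at chr1:149860769-149860784 on the minus strand for H4C15, chr6:27139654-27139669 on the plus strand for H4C9, chr6:26184210-26184225 on the plus strand for H2BC6, chr1:149840692-149840707 on the minus strand for H3C14 and chr1:149842223-149842238 on the minus strand for H2AC18. The letters of H3C14 and H2AC18 were identical over all 26 bases.
H4C15: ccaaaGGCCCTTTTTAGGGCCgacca
H4C9: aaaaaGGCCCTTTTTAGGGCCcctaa
H2BC6: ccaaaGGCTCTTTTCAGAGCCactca
H3C14: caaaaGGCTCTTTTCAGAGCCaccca
H2AC18: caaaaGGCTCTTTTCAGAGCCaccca

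The promoters are shown because the families differ in them. RefSeq on GRCh38.p14 gave the 250 bases before the start of 64 of the 69 members, and 4 motifs were searched on both strands in these windows and in those of 27305 genes. None of the motifs contains another, and the motif of H4 promoters was chosen after the sequences were seen. The octamer ATTTGCAT was in 26 of 64 members (40.6%), among them 14 of 18 H2B and 11 of 16 H2A promoters, against 1.66% of all promoters. No H4 promoter of 13 held it. TATAAA was in 65.6% of the members and in 11.1% of all promoters, and CCAAT in 84.4% and 33%. CCAAT was in every H1, H2A, H2B and H3 promoter given and in 3 of 13 H4 promoters. The letters GGTCCG, part of the element of H4 promoters, were in 12 of 13 H4 promoters, in 1 H2A, 1 H2B and 1 H3 promoter and in 9.33% of all promoters. Windows of neighbouring genes can overlap, as for H2BC21 and H2AC20, and H3C4 and H2AC7 had the same window. The same site can therefore be counted for both promoters. These matches describe letters only.

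The promoters of H4C15, H4C9, H2BC6 and H2AC18 are printed for their different motif content, with the 4 motifs in capitals on either strand. The window of H4C15 was identical to that of H4C14 in 250 of 250 bases. The windows are chr1:149861160-149861409 on the minus strand for H4C15, chr6:27139032-27139281 on the plus strand for H4C9, chr6:26183511-26183760 on the plus strand for H2BC6 and chr1:149842751-149843000 on the minus strand for H2AC18. They precede the RefSeq starts, which can differ from those of the GENCODE 29 gene models used below. The windows of H4C9 and H2BC6 lie inside these models, and that of H4C15 overlaps its model.
H4C15: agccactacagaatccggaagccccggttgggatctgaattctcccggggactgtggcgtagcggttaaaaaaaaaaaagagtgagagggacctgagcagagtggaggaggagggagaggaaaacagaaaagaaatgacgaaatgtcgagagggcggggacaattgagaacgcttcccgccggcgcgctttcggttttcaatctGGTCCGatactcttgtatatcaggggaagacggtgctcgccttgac
H4C9: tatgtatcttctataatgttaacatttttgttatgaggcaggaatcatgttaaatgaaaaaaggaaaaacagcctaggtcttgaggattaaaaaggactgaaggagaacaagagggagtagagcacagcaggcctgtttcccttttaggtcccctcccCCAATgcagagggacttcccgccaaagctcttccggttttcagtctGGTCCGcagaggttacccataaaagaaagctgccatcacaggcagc
H2BC6: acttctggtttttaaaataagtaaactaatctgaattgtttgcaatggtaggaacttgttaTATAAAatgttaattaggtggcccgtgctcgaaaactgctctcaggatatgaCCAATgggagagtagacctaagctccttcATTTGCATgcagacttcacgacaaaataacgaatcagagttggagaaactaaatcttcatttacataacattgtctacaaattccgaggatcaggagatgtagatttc
H2AC18: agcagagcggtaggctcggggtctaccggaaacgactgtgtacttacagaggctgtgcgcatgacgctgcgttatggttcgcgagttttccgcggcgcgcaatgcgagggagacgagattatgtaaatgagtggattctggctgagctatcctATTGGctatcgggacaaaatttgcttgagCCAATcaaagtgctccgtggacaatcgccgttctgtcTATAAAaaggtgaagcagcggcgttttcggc

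Library totals ran from 1090308 to 1461067 counts, at which 3 counts equal 2.03 to 2.81 CPM, the counts scaled to a common TMM-adjusted library total, and such limits cover counting error only. Whether the authors counted by strand is not given in the sources used here, so a row's reads cannot be told apart from reads of the opposite strand. Counts and levels below are therefore those of rows named for a gene, and the strand their reads came from was not tested. This holds for the listed genes as well. A rise or fall given below is that of the row and is not shown to be that of the gene's mRNA. Outside the members, and singled out after their values were seen, the row H2AZ1 held 10 counts while H2AZ1-DT, which overlaps 223 of its exon bases on the other strand, held 3448, and H1-10 held 141 against 2254 for H1-10-AS1. Of 16 hepatocyte markers, 13 were tested and APOH was listed at 0. Their summed level was 221 to 404 CPM in mock and 276 to 401 CPM in arsenite libraries, FGB and AFP were among those called higher after arsenite, and ALB held 260 counts in all. Of 6 fibroblast markers, COL3A1 held 386 counts and rose (log2 fold change of arsenite over mock 2.02, edgeR adjusted p = 9e-21), while the other 5 held 4 counts or fewer, with LUM and PDGFRA at 0, so that the summed level was 5.41 to 12.1 CPM in mock and 29.7 to 51 CPM in arsenite libraries. Of 5 leukocyte markers CD68 fell by 0.61 on the log2 scale (edgeR adjusted p = 0.00788), while DESeq2 called 0 leukocyte markers, with sums of 21.6 to 25.3 CPM in mock and 12.9 to 20.6 CPM in arsenite. None of 3 endothelial markers was called by edgeR, only PECAM1 was tested, and KDR was at 0, with sums of 0 to 12.6 CPM in mock and 2.03 to 8.3 CPM in arsenite. The part of these markers in the histone values was not tested.

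Summed over the 69 rows, histone counts were higher after arsenite in every line. The NES libraries held 290 and 286 histone counts after mock treatment and 567 and 515 after arsenite. In NLS the sums were 307 and 332 in mock and 531 and 586 in arsenite libraries. In G3BP1 they were 299 and 311 in mock and 539 and 588 in arsenite libraries. The lowest arsenite library lay above the highest mock library, in counts and in CPM.

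As a level, the sum was 244.5 ± 31 CPM (SD, n = 6) in mock and 419 ± 30.3 CPM (SD, n = 6) in arsenite libraries, a ratio of 1.71. The ratio was 1.98 in NES (212 ± 5.08 to 419.3 ± 32.8 CPM, SD, n = 2 each), 1.62 in NLS (241.1 ± 9.42 to 389.5 ± 9.36 CPM) and 1.6 in G3BP1 (280.3 ± 0.201 to 448.1 ± 0.758 CPM). Mock levels were lowest in NES and highest in G3BP1, and the 3 pairs of mock libraries did not overlap. The sum over members chosen with earlier results of these data known carries no test, and the ratios were not tested between lines. In bulk RNA a larger share of cells in S phase, more histone RNA per cell and reads of the opposite strand cannot be told apart. None of these was tested.

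**Figure D1:**
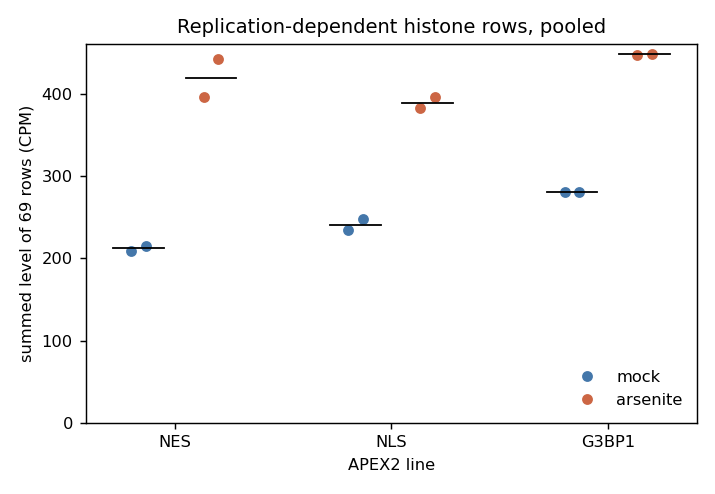
Summed level of the 69 histone rows in CPM (vertical axis) in each of the 12 libraries, by line and treatment. Points are libraries and lines are group means. All 6 arsenite libraries, between 382.9 and 448.7 CPM, lie above all 6 mock libraries, between 208.4 and 280.4 CPM.

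The families differed in how far their sums stood apart, and H4 had the largest ratio of the 5. The 15 H4 rows, whose protein pairs with H3 in the nucleosome core, summed to 29.11 ± 5.08 CPM in mock and 100 ± 12.9 CPM (SD, n = 6 each) in arsenite libraries, a ratio of 3.44. The near-identical pair H4C14 and H4C15 held 688 of the 1012 H4 counts, and the other 13 H4 rows went from 14.67 ± 4.4 to 27.12 ± 4.85 CPM, a ratio of 1.85. By line the H4 ratio was 4.27 for NES, 2.53 for NLS and 3.78 for G3BP1. The 18 H2B rows, whose protein pairs with H2A, went from 53.5 ± 12 to 93.7 ± 5.69 CPM, a ratio of 1.75 that was 2.3 for NES, 1.67 for NLS and 1.48 for G3BP1. For H4 and H2B every arsenite library lay above every mock library.

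The other families overlapped between treatments. The 13 H3 rows summed to 59.24 ± 12 CPM in mock and 86.07 ± 8.32 CPM in arsenite libraries, a ratio of 1.45. The 6 H1 rows, the linker histones that bind DNA between nucleosomes, had a ratio of 1.42 (30.34 ± 5.93 to 43 ± 5.05 CPM). The 17 H2A rows had the lowest ratio, 1.33 (72.27 ± 7.28 to 96.18 ± 8.87 CPM). Before arsenite H2A had the highest mean sum of the 5, and the mean sums of H4 and H1 were lowest and differed by less than their SD. After arsenite the sums of H4, H2A and H2B differed by less than the SD of the H4 sum. Differences between families were not tested.

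**Figure D2:**
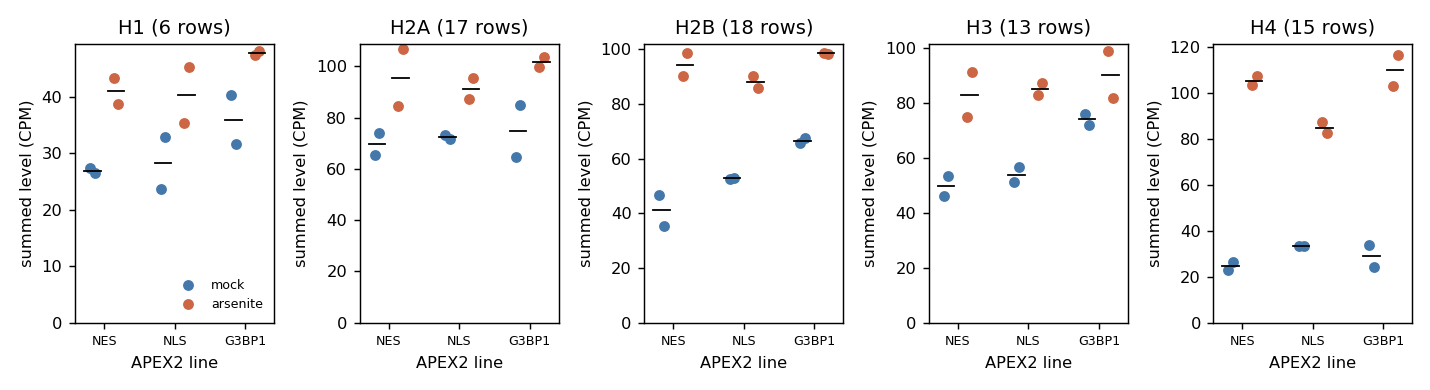
Summed CPM (vertical axis) of the H1, H2A, H2B, H3 and H4 rows in the 12 libraries, with points for libraries and lines for group means. The mean H4 sum goes from 29.11 to 100 CPM, with a ratio of 3.44 that is 1.85 without H4C14 and H4C15, while the H1, H2A and H3 sums overlap between mock and arsenite.

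A few rows carried much of the sum. The 8 members with the most counts held 50.1% of all histone counts, and H4C15 alone held 11.6%. Without H4C15 the ratio of arsenite to mock was 1.53, and without H4C15, H3C14, H2AC18 and H2BC6 it was 1.4 (182.4 to 255.5 CPM). The 26 rows with fewer than 24 counts, which no test reached, together went from 14.13 ± 2.56 to 23.7 ± 7.19 CPM (SD, n = 6 each), a ratio of 1.68.

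Tested row by row for the average arsenite effect over the 3 lines, 8 of 43 members rose and none fell at an edgeR adjusted p under 0.05. Of all 19587 rows tested, 27.2% were called, 14% as higher and 13.2% as lower. The 8 rises are therefore close to the share of rises over all rows, and this count is not a result about the members. An unadjusted p under 0.05 was found in 16 of 43 members and in 36.6% of all rows, and no member with fewer counts than H4C14, which held 89, was called. Estimates above 0 were more frequent, in 38 of 43 members against 49.2% of all rows, and the median log2 fold change (log2FC) was 0.56 against -0.01. By family the median was 0.36 for 4 H1 rows, 0.49 for 12 H2A rows, 0.59 for 9 H2B rows, 0.29 for 12 H3 rows and 1.20 for 6 H4 rows. The members that rose were H4C15, H4C14, H4C9, H2BC6, H2BC12, H3C14, H2AC18 and H1-4.

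All 6 arsenite libraries stood above all 6 mock libraries in 5 of 43 members, H4C15, H4C14, H2BC6, H2AC18 and H1-4, against 4.79% of all rows, and below in none, against 3.66%. The same 5 were the members in which arsenite libraries stood above mock libraries within every line, which held for 9.23% of all rows.

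H4C15 (chr1:149854045-149861210 on GRCh38, minus strand, GENCODE 29) was the best counted member and had the smallest adjusted p. It encodes H4, as all H4C genes do. It held 17 and 15 counts in the NES mock libraries and 101 and 82 after arsenite. The NLS libraries held 14 and 16 counts in mock and 73 and 83 in arsenite, and the G3BP1 libraries 16 and 13 in mock and 72 and 97 in arsenite. The lowest arsenite library had over 4 times the count of the highest mock library.

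In CPM, H4C15 went from 12.1 ± 1.49 to 63.9 ± 8.88 (n = 6 each, SD), a log2FC of 2.39 (SE 0.151, edgeR adjusted p = 1.64e-34). The effect was called in each line, at 2.57 for NES, 2.26 for NLS and 2.32 for G3BP1, and the test of its dependence on line gave an edgeR adjusted p of 0.972. The annotated exons run 1487 bases past the stem-loop printed above and overlap H3C15 on the opposite strand by 173 bases, tail to tail. The table gives 1 count per row, so reads before and after the stem-loop cannot be told apart. The H3C15 row held 62 counts, with a log2FC of 0.64 (SE 0.415, edgeR adjusted p = 0.263).

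H4C14 (chr1:149832659-149839767, plus strand) is a near-identical copy of H4C15 on the other strand, and 97.2% of the 50-base windows of H4C15's transcripts were also in those of H4C14. How the counting split such reads is not given in the sources used here, so the 2 rows are uncertain taken singly. H4C14 held 3 and 3 counts in NES mock and 14 and 11 in NES arsenite libraries, 3 and 7 against 12 and 8 in NLS, and 1 and 1 against 12 and 14 in G3BP1. Every arsenite library was above every mock library. The average log2FC was 1.86 (SE 0.362, edgeR adjusted p = 8.61e-06), and the sum of H4C14 and H4C15 went from 14.44 ± 1.78 to 72.92 ± 10.2 CPM, a ratio of 5.05.

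H4C9 (chr6:27138588-27139881, plus strand), whose promoter is printed above, lay in the chromosome 6 cluster. Its counts were 2 and 9 in NES mock, 17 and 19 in NES arsenite, 10 and 9 in NLS mock, 8 and 10 in NLS arsenite, 5 and 2 in G3BP1 mock and 21 and 21 in G3BP1 arsenite libraries. Arsenite libraries were higher in NES and G3BP1, while the NLS libraries overlapped. The average log2FC was 1.27 (SE 0.288, edgeR adjusted p = 0.000177). It was 1.76 in NES (adjusted p = 0.00385), -0.19 in NLS (0.88) and 2.34 in G3BP1 (0.000274), all from edgeR, but the test of the dependence on line did not pass after adjustment (edgeR adjusted p = 0.245). The call in NES was lost with DESeq2 (adjusted p = 0.0926) and without NES mock replicate 1 (log2FC 1.02, edgeR adjusted p = 0.265) or NES arsenite replicate 2 (edgeR adjusted p = 0.0823), and the value in NES ran from 1.02 to 3.19 when each library was left out.

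The other tested H4 rows, H4C2, H4C3 and H4C16, did not pass the average test. H4C2 and H4C3 had 33 and 31 counts and estimates of 1.07 and 1.14 (SE 0.551 and 0.572). H4C16, the member on chromosome 12, had an estimate of -0.73 (SE 0.389, edgeR adjusted p = 0.162).

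H2BC6 (chr6:26172059-26184655, plus strand) was the best counted H2B row. It held 13 and 10 counts in NES mock and 58 and 38 in NES arsenite libraries, 14 and 11 against 37 and 38 in NLS, and 17 and 10 against 37 and 45 in G3BP1. Every arsenite library was above every mock library. Its level went from 10.1 ± 3.04 to 31.8 ± 5.44 CPM (n = 6 each, SD), a log2FC of 1.66 (SE 0.186, edgeR adjusted p = 2.27e-14), and the effect was called in all 3 lines at 2.11, 1.46 and 1.39. Its annotated exons overlap those of ENSG00000283064 on the opposite strand by 730 bases. That row also rose, from 15.1 ± 4.81 to 31.5 ± 5.4 CPM (log2FC 1.09, SE 0.172, edgeR adjusted p = 4.02e-08), and without the strand setting reads in the overlap cannot be assigned.

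H2BC12 (chr6:27146418-27146798, minus strand) held 16 and 8 counts in NES mock, 20 and 13 in NES arsenite, 12 and 11 in NLS mock, 22 and 16 in NLS arsenite, 9 and 9 in G3BP1 mock and 15 and 21 in G3BP1 arsenite libraries. The treatments overlapped through 1 NES mock library. The log2FC was 0.63 (SE 0.234, edgeR adjusted p = 0.0313). The call was lost with DESeq2 (adjusted p = 0.113), without a filter on low counts (edgeR adjusted p = 0.0606) and in 7 of 12 fits that left out 1 library, which were NES mock replicate 2, NES arsenite replicate 1, NLS mock replicate 2, NLS arsenite replicate 1, either G3BP1 mock replicate and G3BP1 arsenite replicate 2 (edgeR adjusted p from 0.0531 to 0.0969). H2BC21, with as many counts in total, held 11 and 5 counts in NES mock, 20 and 13 in NES arsenite, 11 and 12 in NLS mock, 18 and 24 in NLS arsenite, 9 and 18 in G3BP1 mock and 17 and 14 in G3BP1 arsenite libraries. The treatments overlapped through 1 G3BP1 mock library. The row missed the threshold (log2FC 0.59, SE 0.237, edgeR adjusted p = 0.0514) and was called without G3BP1 mock replicate 2 (0.00896) or G3BP1 arsenite replicate 2 (0.0228), and with 3 other settings (0.0351 to 0.0458).

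H3C14 (chr1:149839538-149841193, minus strand) was the best counted H3 row, and all of the 50-base windows of its transcripts recur in H3C15. It held 25 and 23 counts in NES mock, 55 and 53 in NES arsenite, 30 and 23 in NLS mock, 53 and 67 in NLS arsenite, 26 and 30 in G3BP1 mock and 53 and 32 in G3BP1 arsenite libraries. In CPM, 1 G3BP1 arsenite library lay within the range of the mock libraries. The level went from 21.1 ± 4.21 to 39.3 ± 8.01 CPM (n = 6 each, SD), a log2FC of 0.91 (SE 0.154, edgeR adjusted p = 2.84e-07). By line it was 1.24 in NES and 1.06 in NLS, both called, and 0.40 in G3BP1 (edgeR adjusted p = 0.401), and the call in NLS was lost without NLS mock replicate 2 (0.0516). The sum with H3C15 went from 24.17 to 44.31 CPM, a ratio of 1.83.

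H3C2 had 8 and 5 counts in NES mock, 15 and 18 in NES arsenite, 3 and 14 in NLS mock, 18 and 12 in NLS arsenite, 17 and 16 in G3BP1 mock and 16 and 20 in G3BP1 arsenite libraries. The G3BP1 mock libraries were as high as arsenite ones. The average log2FC was 0.56 (SE 0.248, edgeR adjusted p = 0.0814), while the effect in NES was called at 1.40 (edgeR adjusted p = 0.0247). That call was lost with DESeq2 (adjusted p = 0.186) and without NES mock replicate 1, NES mock replicate 2 or NES arsenite replicate 2 (edgeR adjusted p from 0.0603 to 0.255). The average passed without NLS mock replicate 2, G3BP1 mock replicate 1 or G3BP1 arsenite replicate 1 (edgeR adjusted p from 0.0304 to 0.0442), and as the mean of the 3 line effects (0.0281).

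H2AC18 (chr1:149842188-149842736, minus strand) was the best counted H2A row. It held 25 and 25 counts in NES mock, 33 and 38 in NES arsenite, 26 and 25 in NLS mock, 40 and 41 in NLS arsenite, 16 and 24 in G3BP1 mock and 32 and 42 in G3BP1 arsenite libraries. Every arsenite library was above every mock library, by a smaller step than in H4C15 or H2BC6. The level went from 18.7 ± 2.2 to 28.5 ± 3.58 CPM (SD, n = 6 each), with a log2FC of 0.60 (SE 0.165, edgeR adjusted p = 0.00238). No single line passed, at estimates of 0.57, 0.55 and 0.68 in NES, NLS and G3BP1. All windows of its transcripts recur in H2AC19, so these 2 rows are uncertain taken singly as well. H2AC19 held 76 counts and an estimate of 0.62 (SE 0.363, edgeR adjusted p = 0.213), and the pair together had a ratio of 1.53.

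H1-4 (chr6:26156354-26157107, plus strand) encodes a linker histone and shared no 50-base window with another member. It held 24 and 20 counts in NES mock, 30 and 26 in NES arsenite, 16 and 26 in NLS mock, 27 and 35 in NLS arsenite, 19 and 21 in G3BP1 mock and 35 and 34 in G3BP1 arsenite libraries. Scaled to CPM, all 6 arsenite libraries lay above all 6 mock libraries, but barely. The lowest arsenite value was 19.47 CPM (NLS replicate 1) and the highest mock value 19.40 CPM (NLS replicate 2). The log2FC was 0.48 (SE 0.176, edgeR adjusted p = 0.0287), with no call in any single line. The call was lost with DESeq2 (adjusted p = 0.0948), without a filter (edgeR adjusted p = 0.0631) and in 5 of 12 fits that left out 1 library, which were NES mock replicate 2, NLS mock replicate 1, NLS arsenite replicate 2, G3BP1 mock replicate 1 and G3BP1 arsenite replicate 1 (edgeR adjusted p from 0.0519 to 0.0917).

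**Figure D3:**
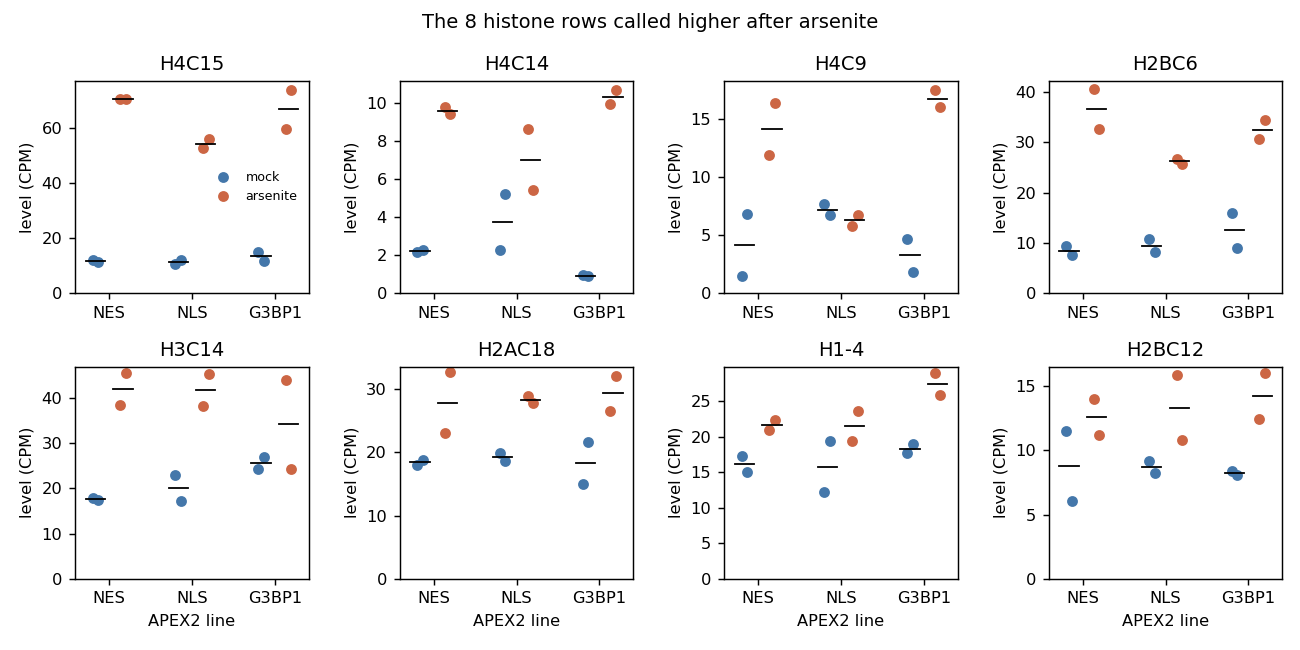
CPM (vertical axis) of the 8 histone rows that rose on average after arsenite, in every library, by line and treatment, with points for libraries and lines for group means. In H4C15 the mock libraries average 12.1 CPM and the arsenite libraries 63.9 CPM, while in H4C9 the NLS libraries overlap.

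Divided by the length of the GENCODE 29 exons, H2AC18 had the highest mock level of the 8 best counted members, at 34 CPM per kb. H2BC12 and H1-4 followed at 22.5 and 22.3 CPM per kb, then H3C2 at 21.3, H3C14 at 12.8, H4C15 at 6.3, H2BC21 at 4.08 and H2BC6 at 3.92 CPM per kb. After arsenite H2AC18 stood at 51.9, H2BC12 at 35.1, H4C15 at 33.1, H1-4 at 31.3 and H3C2 at 30.7 CPM per kb. H3C14 stood at 23.7, H2BC6 at 12.3 and H2BC21 at 6.01 CPM per kb. H4C15 stood below H1-4, H3C2 and H3C14 in mock and above them after arsenite. The rows H4C15, H3C14 and H2AC18 are uncertain taken singly, as said above. These lengths carry the annotated extensions of H4C15, H3C14, H2BC6 and H2BC21 past or before the coding part, and the authors' annotation may differ.

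The remaining 35 tested members were not called on average, and their estimates ran from -0.79 for H3C7 to 1.20 for H2AC12. Estimates under 0 were found for H2AC14 (-0.11), H2AC1 (-0.13), H3C11 (-0.51), H4C16 (-0.73) and H3C7 (-0.79). Well counted members near 0 were H2AC25 with 147 counts (0.04, SE 0.249), H2AC15 with 110 counts (0.02, SE 0.292) and H3C10 with 88 counts (0.03, SE 0.329). H3C12 and H2AC17 share exon sequence in the annotation and had equal counts in 11 of 12 libraries, so they are not separate measurements.

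**Figure D4:**
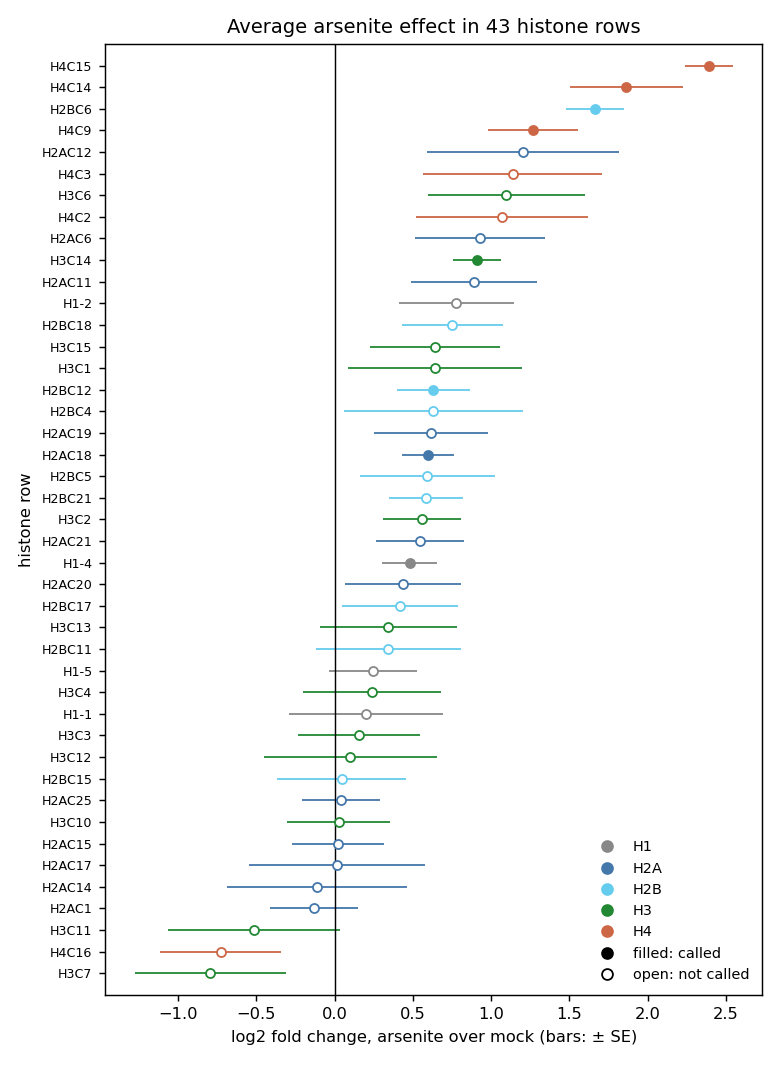
Average log2 fold change of arsenite over mock (horizontal axis) for the 43 tested histone rows, ordered by size and coloured by family, with bars of 1 standard error; filled points were called by edgeR and open points were not. Estimates run from -0.79 for H3C7 to 2.39 for H4C15, and 38 of 43 lie above 0.

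Single lines were compared next. In NES 8 of 43 members rose and none fell, where 13.4% of all rows were called, 7.56% as higher and 5.87% as lower. These were H4C15, H4C14, H4C9, H3C14, H3C2, H2BC6, H1-2 and H2AC12. H1-2, a linker histone, held 1 and 3 counts in NES mock and 8 and 9 in NES arsenite libraries (edgeR adjusted p = 0.039). H2AC12 held 0 and 0 counts in NES mock and 4 and 3 in NES arsenite libraries (edgeR adjusted p = 0.0392). With DESeq2 the count in NES was 3. It was 3 without NES mock replicate 1, 4 without mock replicate 2, 5 without arsenite replicate 1 and 4 without arsenite replicate 2. The calls of H1-2 and H2AC12 were lost in each of these 4 fits.

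In NLS 3 members rose, H4C15, H3C14 and H2BC6, and none fell, where 11.3% of all rows were called, 5.83% as higher and 5.52% as lower. In G3BP1 4 rose, H4C15, H4C14, H4C9 and H2BC6, and H4C16 fell, where 10.2% of all rows were called, 5.48% as higher and 4.77% as lower. H4C16 held 10 and 6 counts in G3BP1 mock and 1 and 3 in G3BP1 arsenite libraries (log2FC -2.14, edgeR adjusted p = 0.0463), and the call was lost with the replicate number as a block (edgeR adjusted p = 0.0513) and without any 1 of the 4 G3BP1 libraries (0.0558 to 0.36). With DESeq2 the count in G3BP1 was 2, and without G3BP1 mock replicate 2 it was also 2, with H2BC6 (edgeR adjusted p = 0.0796), H4C9 (0.052) and H4C16 no longer called. The members had a median log2FC that was 0.58 for NES, 0.54 for NLS and 0.41 for G3BP1. Estimates lay above 0 in 33 of 43 members in NES, where 50.7% of all rows did, in 32 in NLS (49.3%) and in 30 in G3BP1 (49.8%). Both arsenite libraries of a line lay above both mock libraries in 19 members in NES, 18 in NLS and 16 in G3BP1, against 26.7%, 24.4% and 24.8% of all rows.

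The dependence of the arsenite effect on line was tested directly. By edgeR 0 of 43 members passed, where 0.112% of all rows did, with 3 members at an unadjusted p under 0.05 (H4C9, H2AC12 and H3C2), where 7.21% of all rows had one, so that this count is at the background. By DESeq2 0 members passed, with 1 at an unadjusted p under 0.05. The higher ratio of the summed level in NES therefore comes with no single member shown to respond differently between lines.

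Among mock libraries 1 of 43 members, H3C2, differed between the lines by edgeR (adjusted p = 0.00763), where 15.1% of all rows did. Its counts, given above, were highest in G3BP1. The call was lost with DESeq2 (adjusted p = 0.192) and without G3BP1 mock replicate 1 (edgeR adjusted p = 0.123) or 2 (edgeR adjusted p = 0.0671).

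The members' sums were also set out by place and by gene structure, as descriptions. The 11 rows of the main chromosome 1 cluster went from 87.77 to 190.8 CPM, a ratio of 2.17, the 2 rows farther along that chromosome (H2AC25 and H2BC26) from 10.43 to 11.11 CPM, a ratio of 1.07, and the 55 rows of chromosome 6 from 140.8 to 213.9 CPM, a ratio of 1.52. The 31 rows on the plus strand had a ratio of 1.8 and the 38 rows on the minus strand one of 1.67. The main chromosome 1 cluster includes H4C15, H4C14, H3C14 and H2AC18.

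The annotated end of the gene was the next grouping. The 18 rows whose exons run 500 or more bases past the stem-loop had a ratio of 2.16 (77.74 to 168.3 CPM), with 3 of 11 tested rows called higher and a median log2FC of 0.75. The 12 rows with a shorter stretch past the stem-loop had a ratio of 1.81 and a median of 0.62, with 3 of 8 called. The 39 rows with no stem-loop in the annotated exons had a ratio of 1.35 and a median of 0.34, with 2 of 24 called. Over all rows 14% were called higher, and with so few rows in each group no trend can be read from these counts. The 33 rows with an opposite-strand gene tail to tail within 5000 bases had a ratio of 1.94, and the other 36 one of 1.37, with medians of 0.57 and 0.56. The groups share the well counted rows H4C15 and H3C14, and the part of gene structure in these values was not tested.

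Some rows that lie beside members also rose. H1-12P, a linker histone pseudogene 207 bases tail to tail from H3C4, held 11 and 11 counts in NES mock, 44 and 44 in NES arsenite, 18 and 15 in NLS mock, 35 and 58 in NLS arsenite, 13 and 18 in G3BP1 mock and 61 and 58 in G3BP1 arsenite libraries. No arsenite library overlapped a mock library, and the log2FC was 1.70 (SE 0.175, edgeR adjusted p = 1.58e-16). H3C4 itself held 50 counts, with an estimate of 0.24 (SE 0.441). RNU7-26P, a U7 snRNA pseudogene 3661 bases tail to tail from H2BC17, rose by 1.75 on the log2 scale (SE 0.205, edgeR adjusted p = 2.11e-13), from 7.81 ± 2.57 to 27.1 ± 5.15 CPM (SD, n = 6 each), beside an estimate of 0.42 (SE 0.368) for H2BC17. BOLA1, which overlaps H2AC21 by 27 bases on the other strand, had an estimate of 0.22 (SE 0.0908, edgeR adjusted p = 0.0546), and FCGR1A, opposite H2BC18, was called higher at 33 counts in all (edgeR adjusted p = 0.0474). FCGR1A held 2 and 0 counts in NES mock and 3 and 6 in NES arsenite libraries. In NLS it held 1 and 4 against 11 and 0, and in G3BP1 0 and 1 against 0 and 5, so the treatments overlapped. Of 15 histone pseudogene rows 2 had 24 or more counts, H1-12P, which rose, and H2BC2P, at 0.06 (SE 0.487).

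The list for histone mRNA synthesis and processing, which also holds factors of the polyadenylation machinery, had 29 genes. Of these 18 were tested, 3 rose and 2 fell by edgeR on average over the lines, with a median log2FC of -0.01. The 5 calls among 18 are at the background of 27.2% of all rows, and the named genes below are given for their values, not as a result about the list. SLBP, the stem-loop binding protein, held 43 counts with an estimate of 0.26 (SE 0.473, edgeR adjusted p = 0.741), and NPAT, singled out like SLBP for its role, held 111 counts with 0.67 (SE 0.296, edgeR adjusted p = 0.0768). NCBP2, the small subunit of the nuclear cap-binding complex, rose by 0.63 (edgeR adjusted p = 1.26e-07), while its partner NCBP1, the best counted row of the list, had -0.08 (edgeR adjusted p = 0.387). CCNE2, a cyclin of S-phase entry, rose by 0.31 (edgeR adjusted p = 0.000847). CPSF3, the nuclease that cuts histone pre-mRNA, was called higher at 53 counts in all (edgeR adjusted p = 0.0272). Its level went from 1.99 ± 1.32 to 4.92 ± 3.66 CPM (SD, n = 6 each). CPSF3 held 2 and 4 counts in NES mock and 6 and 14 in NES arsenite libraries. In NLS it held 5 and 0 against 2 and 7, and in G3BP1 2 and 2 against 4 and 5, so the treatments overlapped. WDR33 and CSTF3, factors of the polyadenylation machinery, fell by 0.19 and 0.39 on the log2 scale (edgeR adjusted p = 0.0375 and 0.0164). The number called in this list was 2 to 6 over the alternatives.

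Of 19 genes of histone mRNA translation and decay, 11 were tested, 2 rose and none fell, with a median of 0.10, against 14% of all rows called higher and 13.2% lower. TUT4, a terminal uridylyltransferase, rose by 0.54 (edgeR adjusted p = 0.000111) and DCP2, the decapping enzyme, by 0.54 (edgeR adjusted p = 6.36e-06). EXOSC3, a subunit of the RNA exosome and the best counted row of the list, had an estimate of -0.04 (SE 0.0619).

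Replication-independent histones, made outside S phase from ordinary polyadenylated mRNAs, did not share one direction. Of 14 listed symbols 12 named a row of the table. The others, H2BU1 and H4-16, are earlier symbols of H2BC26 and H4C16, which were counted here among the members. From the list 9 rows were tested, 2 rose and 1 fell, with a median of 0.29, against 27.2% of all rows called. H3-3B, one of the genes of the replacement histone H3.3, fell from 98.2 ± 18.5 to 79.4 ± 5.56 CPM (SD, n = 6 each; log2FC -0.29, edgeR adjusted p = 0.00646). MACROH2A2 rose by 0.45 (edgeR adjusted p = 0.000514), and H2AJ, with 25 counts in all, was called higher (edgeR adjusted p = 0.0147). The number called ranged from 1 to 3 over the alternatives. Of 18 histone chaperones 14 were tested, 2 rose and 1 fell, with a median of 0.15, again against 27.2% of all rows. The number of chaperones called ranged from 2 to 4 over the alternatives. NASP, a chaperone of H3 and H4 dimers, rose by 0.63 (edgeR adjusted p = 2.38e-07) and IPO4, an importin that carries them into the nucleus, by 1.40 (edgeR adjusted p = 0.00129), while NAP1L1, an H2A and H2B chaperone, fell by 0.37 on the log2 scale (edgeR adjusted p = 0.0381).

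The S-phase and replication genes, which are expressed around the time histone mRNAs are made, had a median of -0.06 over 22 tested of 31 listed, and 4 rose and 1 fell, a share no higher than the 27.2% of all rows called. FEN1, the flap endonuclease of lagging-strand synthesis, rose from 50.1 ± 19.5 to 99.4 ± 8.9 CPM (SD, n = 6 each; log2FC 0.996, edgeR adjusted p = 4.5e-16). CDT1, TK1 and CDC45 rose by 0.37, 0.64 and 1.57 (edgeR adjusted p = 0.0315, 0.0146 and 0.0131), and RRM2, a subunit of ribonucleotide reductase, fell by 1.02 on the log2 scale (edgeR adjusted p = 0.00971). TYMS, thymidylate synthase and the best counted row of the list, had an estimate of 0.01 (SE 0.0731, edgeR adjusted p = 0.927). The number called was 1 to 6 over the alternatives.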

How the data were processed

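RNA was sequenced from 12 libraries, 2 in each of 6 groups read from sample titles, genotype and treatment labels. The values are raw gene counts as the authors deposited them, in a single table of 61255 rows. Of its 16 columns, 4 fit no label in the sample list and were left out. Per the submitters' processing notes the tools were Trim Galore, Subread, featureCounts and edgeR on GRCh38.p13. Their versions, the annotation and the strand setting of the counting are not given in the sources used here.

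Counts were tested with edgeR 4.0.16 in R 4.3.3 over the 19587 rows with 24 or more counts in total, with TMM normalization, the quasi-likelihood F test and Benjamini-Hochberg adjustment over all rows, and calls at an adjusted p under 0.05. The average effect had line and treatment as additive terms (8 residual degrees of freedom), and line effects came from a model with 1 mean per group (6 residual degrees of freedom). The code was tested on simulated counts. Replicates of every group differed beyond sampling noise by a chi-square test, so each library was counted. Alternatives were DESeq2 1.42.0, other scalings and filters, a replicate block, a stricter threshold and leaving out each library. Gene models came from GENCODE 29 on GRCh38 and promoters from RefSeq on GRCh38.p14.

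The members and lists were chosen with earlier results of these data known. Any member with 24 or more counts could be named, with full values for the 8 best counted and all called on average. From each list (histone mRNA synthesis and processing, translation and decay, replication-independent histones, chaperones, S-phase genes, pseudogenes, and hepatocyte, fibroblast, leukocyte and endothelial markers) the called rows and up to 4 of the best counted could be named. Single values of some marker rows are not reported here.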

Additional observations from a re-analysis of the deposited data

How the results depend on the processing

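The number of members called for the average effect was 6 to 11 over 9 alternatives and 6 to 9 when each library was left out, all calls higher, beside 8 as reported. In NES, 8 calls became 3 with DESeq2 and 5 at an adjusted p under 0.01, and 3 to 8 when each library was left out. In G3BP1, 5 calls became 2 with DESeq2 and 2 to 5 when each library was left out, and in NLS the count was 3 under every alternative and with every library left out, but without NLS mock replicate 2 only 2 of the 3 were the same members. For the difference among mock lines, 1 call became 0 with DESeq2 and 0 to 1 when each library was left out. Without H4C15 the log2 ratio of the summed level was 0.61 over all lines, 0.80 in NES, 0.54 in NLS and 0.51 in G3BP1, beside 0.78, 0.98, 0.69 and 0.68. Leaving out each library gave 0.74 to 0.82 over all lines, 0.90 to 1.06 in NES, 0.65 to 0.73 in NLS and 0.68 to 0.68 in G3BP1. No direction reversed. The replicate numbers did not pair the libraries: deviations from the group means of same-numbered libraries correlated at -0.06 in NES, -0.02 in NLS and 0.01 in G3BP1 over 6390 rows. With the replicate block 8 members were called on average, 8 in NES, 3 in NLS and 4 in G3BP1, 0 for the dependence on line and 1 among mock lines. Over all rows DESeq2 called 976 in NES where edgeR called 2630, 656 against 2223 in NLS, 716 against 2007 in G3BP1, 1133 against 2955 among mock lines and 0 against 22 for the dependence on line. The cause was not tested. Depth limits what single rows can show, since 3 counts equal 2.03 to 2.81 CPM and 26 of 69 members had fewer than 24 counts over the 12 libraries.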
